A study of Mus musculus with 9 samples.

Results

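Genes of the oligodendrocyte lineage and of myelin were followed in mouse anterior cingulate cortex, a midline frontal region, after ketamine or sleep deprivation. The members are 35 genes listed by symbol, from precursor markers to myelin proteins. Of these, 33 were measured by a probe set named for that gene alone, out of 22180 genes tested. Where a gene had several probe sets, as Bcas1 did, the brightest over all 9 arrays stands for it. Enpp2, a secreted phospholipase, has no probe set in the annotation used, and Trf, the iron carrier transferrin, shares its probe set with another gene, so both were not analysed here.

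Each of 3 groups had 3 arrays of total RNA from C57BL/6J mice. KT mice received the NMDA receptor antagonist ketamine at 3 mg/kg intraperitoneally at ZT 5, where ZT counts hours in the lighting cycle. SD mice were prevented from sleeping between ZT 0 and ZT 12 by a bar turning slowly in the cage, and the labels give them no injection. Saline mice, the controls, were injected intraperitoneally with saline at ZT 5. Tissue of every group was taken at ZT 13, which came 8 hours after an injection and 1 hour after the end of forced waking. The labels do not give the age or sex of the mice. The replicates are called biological in the labels, and each array is treated as 1 sample. Since SD mice had no injection in the labels, waking and the lack of an injection cannot be told apart in SD against saline or in KT against SD. The deposited values are linear intensities. All differences are of log2(intensity + 16), with the first-named group minus the second, and p-values come from 1 limma fit of all 22180 genes.

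Oligodendrocytes wrap axons in myelin, a compacted membrane that speeds conduction. They arise from dividing precursors that stay in the adult cortex, and a precursor that differentiates passes through a short newly formed stage before it turns on the genes of myelin. In the cingulate region the grey matter borders the myelin-rich cingulum and corpus callosum. Because the RNA is from whole tissue, fewer cells of a type and less RNA per cell cannot be told apart.

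No member passed limma after Benjamini-Hochberg adjustment over all genes in any comparison, and 0% of all genes did. The mature members were mostly high or low together in the same arrays, and their spread within groups exceeded that of most genes of like brightness. Among the 23 mature members, 21 averaged lower in SD than in saline arrays, with a median difference of -0.16, against a median of -0.0088 over all genes. In KT against saline the mature members had no common direction, since 1 KT array was high for nearly all of them and another low. The 4 precursor members had no common direction against saline in either KT or SD arrays, though Lhfpl3 had the lowest difference of all members in KT against saline.

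The precursor members were Pdgfra, Cspg4, Lhfpl3 and Vcan. Pdgfra encodes the receptor through which platelet-derived growth factor keeps precursors dividing. Its intensity (probe set 17438246) was 469, 431 and 376 in KT arrays, 450, 494 and 362 in SD arrays, and 508, 424 and 422 in saline arrays. The groups overlapped, with differences from saline of -0.083 ± 0.13 for KT and -0.057 ± 0.13 for SD (limma estimate ± SE). Cspg4, which encodes the NG2 proteoglycan of the precursor surface, read 172, 180 and 182 in KT arrays, 196, 182 and 174 in SD arrays, and 150, 164 and 189 in saline arrays. Saline arrays held both the lowest and the second highest Cspg4 value, and the difference from saline was 0.085 ± 0.099 for KT and 0.13 ± 0.099 for SD. Lhfpl3, a marker of precursors in mouse cortex, read 246, 224 and 198 in KT arrays, 234, 266 and 191 in SD arrays, and 242, 245 and 268 in saline arrays. Its difference in KT against saline, -0.17 ± 0.12, was the lowest of all 33 members, and in SD against saline it was -0.13 ± 0.12, with overlapping groups. Vcan, the matrix proteoglycan versican, read 208, 201 and 172 in KT arrays, 195, 216 and 191 in SD arrays, and 175, 200 and 193 in saline arrays. Its groups overlapped too. Over the 4 genes the median difference was -0.030 in KT against saline, with 2 higher and 2 lower. It was 0.0094 in SD against saline, also with 2 higher and 2 lower, and -0.041 in KT against SD, with all 4 lower by at most 0.051.

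Of the transcription factors that define the lineage, Olig2 had the highest difference of any member in SD against saline and the lowest in KT against SD. Olig2, a basic helix-loop-helix factor needed to specify oligodendrocytes (probe set 17327030), read 297, 327 and 243 in KT arrays, 337, 354 and 311 in SD arrays, and 293, 285 and 284 in saline arrays. Every SD array lay above every saline array, while KT array 2 exceeded SD array 3. The difference was 0.20 ± 0.11 in SD against saline (limma, adjusted p = 1.00) and -0.21 ± 0.11 in KT against SD (limma, adjusted p = 0.553). Olig2 was the only one of the 33 members whose SD arrays all lay above the saline arrays. That pattern was shown by 3.57% of all genes, so 1 of 33 members is near that share. Olig1, its close relative on the same chromosome, read 461, 536 and 428 in KT arrays, 410, 450 and 428 in SD arrays, and 432, 421 and 406 in saline arrays. The SD and saline arrays of Olig1 overlapped, with a difference of 0.033 ± 0.099. Sox10, the HMG-box factor that acts with Myrf on myelin genes, read 152, 212 and 128 in KT arrays, 168, 123 and 142 in SD arrays, and 131, 154 and 142 in saline arrays. KT array 2 was highest and SD array 2 lowest for Sox10, and no difference between groups exceeded 0.16 ± 0.15.

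The 3 markers of newly formed oligodendrocytes gave overlapping groups in every comparison. Gpr17, a receptor that marks cells just leaving the precursor state, read 282, 298 and 281 in KT arrays, 257, 302 and 260 in SD arrays, and 246, 258 and 286 in saline arrays. It had the smallest spread within groups of all 33 members, an SD of 0.097 on the log2 scale, and differed from saline by 0.12 ± 0.097 in KT arrays. Bcas1, a marker of newly formed and early myelinating cells, read 232, 292 and 200 in KT arrays, 238, 245 and 247 in SD arrays, and 239, 293 and 204 in saline arrays. Its group means differed by at most 0.025 on the log2 scale. Enpp6, a choline phosphodiesterase of newly forming oligodendrocytes, read 95.8, 129 and 82.4 in KT arrays, 82.6, 96.0 and 76.8 in SD arrays, and 101, 95.6 and 95.6 in saline arrays. Enpp6 was near the array medians of 97.7 to 106.2, and KT array 2 stood above all other arrays for it.

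**Figure D1:**
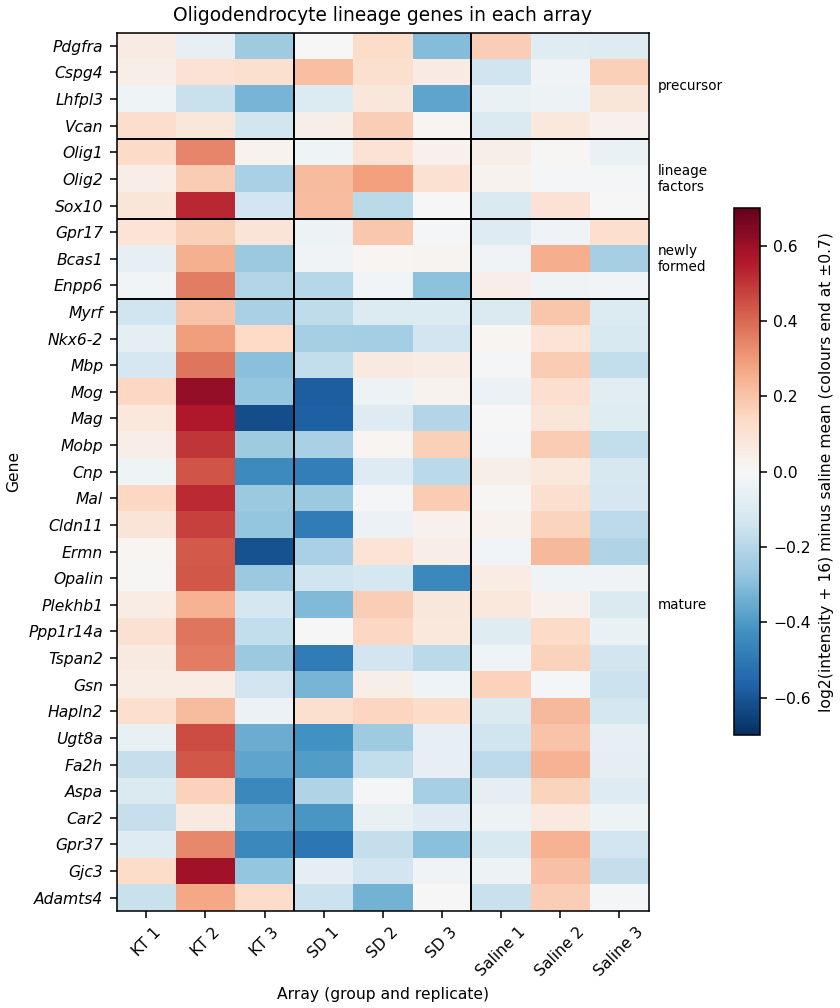
Each row is 1 of the 33 measured members and each column 1 array, with KT arrays at the left, SD arrays in the middle and saline arrays at the right; colour gives log2(intensity + 16) minus the mean of the 3 saline arrays. In the mature block KT array 2 is red for all 23 genes, while KT array 3 and SD array 1 are blue for most; in the precursor block KT array 2 lies above the saline mean for 2 of 4 genes and SD array 1 for 3.

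The mature members begin with 2 transcription factors. Myrf, the membrane-bound factor that starts and maintains the myelin programme, read 245, 313 and 230 in KT arrays, 237, 252 and 253 in SD arrays, and 252, 313 and 253 in saline arrays. All groups overlapped, with a difference of -0.12 ± 0.12 in SD against saline. Nkx6-2, a homeodomain factor of differentiating oligodendrocytes (probe set 17497449), read 118, 156 and 139 in KT arrays, 104, 103 and 112 in SD arrays, and 126, 134 and 115 in saline arrays. All SD arrays lay below all KT arrays and below all saline arrays. Its difference was 0.32 ± 0.11 in KT against SD (limma, adjusted p = 0.425) and -0.20 ± 0.11 in SD against saline (limma, adjusted p = 1.00).

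The structural genes of myelin are the most numerous class, with 14 members. Mbp, the basic protein that compacts the myelin membrane, read 1007, 1420 and 891 in KT arrays, 967, 1141 and 1133 in SD arrays, and 1088, 1240 and 970 in saline arrays. Its group means were nearly equal, at 1106 ± 278, 1081 ± 98.3 and 1099 ± 135 for KT, SD and saline (SD, n = 3 each), although KT array 2 was 1.59 times KT array 3. Mobp, another small basic protein of compact myelin, read 1041, 1434 and 847 in KT arrays, 860, 1018 and 1133 in SD arrays, and 1003, 1143 and 894 in saline arrays. It too had overlapping groups, with a difference of -0.015 ± 0.17 in SD against saline. Mog, an immunoglobulin-like protein of the outermost myelin layer, read 313, 440 and 231 in KT arrays, 184, 275 and 287 in SD arrays, and 273, 307 and 267 in saline arrays. Its KT and SD arrays spanned wide, overlapping ranges, and the difference in KT against SD was 0.36 ± 0.19 (limma, adjusted p = 0.556), the highest of any member in that comparison. Cnp, the cyclic nucleotide phosphodiesterase of non-compact myelin, read 385, 540 and 285 in KT arrays, 276, 368 and 344 in SD arrays, and 405, 415 and 362 in saline arrays. Only SD array 2 kept the SD and saline ranges of Cnp overlapping, and the difference was -0.25 ± 0.18 (limma, adjusted p = 1.00).

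Mag, a glycoprotein of the inner myelin layer that faces the axon (probe set 17489341), read 407, 578 and 246 in KT arrays, 255, 362 and 333 in SD arrays, and 386, 411 and 363 in saline arrays. All SD arrays lay below all saline arrays, by a narrow margin between SD array 2 and saline array 3, and the difference was -0.29 ± 0.22 (limma, adjusted p = 1.00). KT arrays reached both above and below the saline arrays, so that the KT mean of 410 ± 166 was close to the saline mean of 387 ± 23.7 (SD, n = 3 each). Opalin, a transmembrane glycoprotein of oligodendrocytes (probe set 17364588), read 147, 203 and 119 in KT arrays, 131, 133 and 103 in SD arrays, and 152, 143 and 143 in saline arrays. Its SD arrays lay below all saline arrays, with a difference of -0.24 ± 0.15 (limma, adjusted p = 1.00), and the difference in KT against SD was 0.30 ± 0.15 (limma, adjusted p = 0.546). Tspan2, a tetraspanin of the oligodendrocyte surface (probe set 17401072), read 629, 776 and 500 in KT arrays, 424, 548 and 526 in SD arrays, and 589, 675 and 550 in saline arrays. Its SD arrays lay below all saline arrays but overlapped KT array 3. The difference was -0.27 ± 0.15 in SD against saline (limma, adjusted p = 1.00) and 0.32 ± 0.15 in KT against SD (limma, adjusted p = 0.526).

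The other myelin protein genes gave overlapping groups in all comparisons. They are Mal and Plekhb1, membrane-associated proteins, Cldn11, the claudin of myelin tight junctions, Ermn, a cytoskeletal protein of late oligodendrocytes, Ppp1r14a, a phosphatase inhibitor, Gsn, the actin-severing gelsolin, and Hapln2, a link protein of the nodal matrix. In SD against saline their differences ran between -0.17 ± 0.18 for Cldn11 and 0.13 ± 0.11 for Hapln2. Ppp1r14a, at 0.071 ± 0.13, and Hapln2 were the 2 mature members that averaged higher in SD than in saline arrays. Ermn read 305, 412 and 192 in KT arrays, 256, 324 and 313 in SD arrays, and 298, 357 and 259 in saline arrays, and its KT arrays held both its highest and its lowest value. Over all 14 myelin protein genes, 12 were lower in SD than in saline arrays, with a median of -0.068.

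The 4 measured enzymes of myelin lipids and metabolites were all lower in SD than in saline arrays, with a median of -0.19. Ugt8a makes galactosylceramide and Fa2h hydroxylates the fatty acids of such lipids. Aspa cleaves N-acetylaspartate to yield acetate, and Car2 is a carbonic anhydrase. Car2 (probe set 17396162) read 821, 962 and 709 in KT arrays, 689, 888 and 863 in SD arrays, and 896, 967 and 899 in saline arrays. All SD arrays of Car2 lay below all saline arrays, by 888 against 896 at the nearest, with a difference of -0.18 ± 0.12 (limma, adjusted p = 1.00). Ugt8a differed by -0.24 ± 0.17, Fa2h by -0.21 ± 0.18 and Aspa by -0.15 ± 0.14 in SD against saline, each with overlapping groups. The last 3 mature members were a receptor, a junction protein and a protease. Gpr37, a receptor of mature oligodendrocytes (probe set 17465238), read 381, 517 and 293 in KT arrays, 282, 361 and 329 in SD arrays, and 377, 484 and 369 in saline arrays. All its SD arrays lay below the saline arrays, and its difference of -0.32 ± 0.17 (limma, adjusted p = 1.00) was the lowest of any member in SD against saline. Gjc3, the connexin 29 of myelin, and Adamts4, a matrix protease of mature oligodendrocytes, differed by -0.072 ± 0.17 and -0.16 ± 0.13 with overlapping groups.

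**Figure D2:**
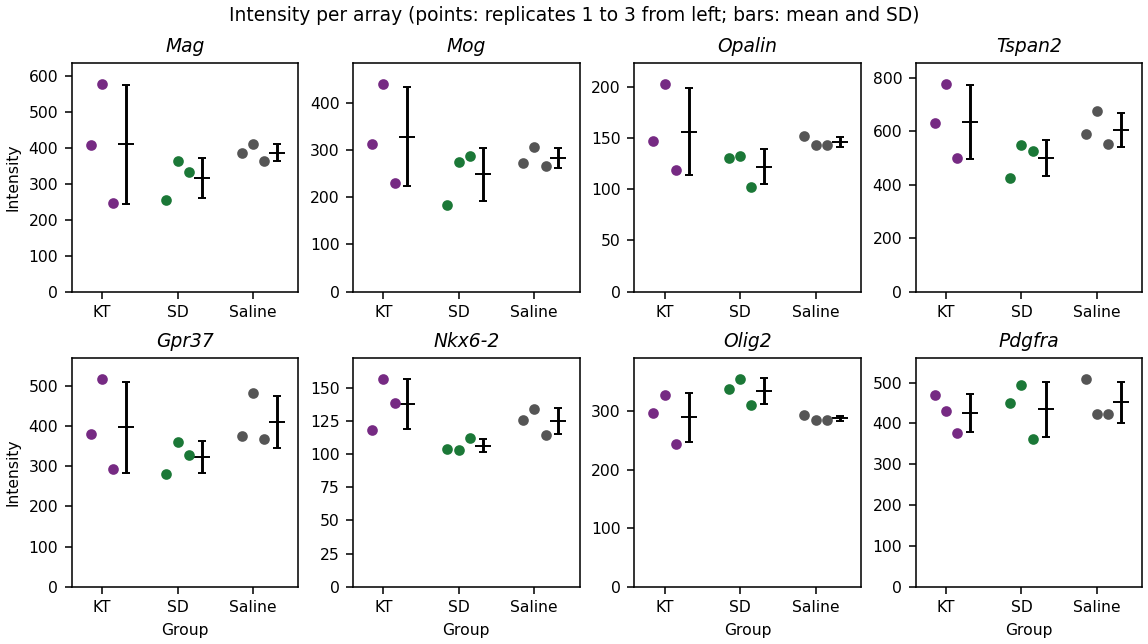
Intensity on linear axes that start at 0 is plotted per array for 8 members, with KT, SD and saline arrays from left to right in each panel and the mean and SD of each group as a bar. The SD points of Mag, Opalin, Tspan2, Gpr37 and Nkx6-2 lie below all saline points, those of Olig2 lie above them, and the points of Mog and Pdgfra overlap.

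Promoter sequence is shown for Mag, Opalin and Nkx6-2, 3 mature members whose SD arrays all lay below the saline arrays, and for the precursor gene Cspg4 as a contrast within the lineage. Each is the 250 bases before the gene's start in RefSeq on GRCm38.p6, written 5′ to 3′ on the gene's strand, at chr7:30914923-30915172 (minus strand), chr19:41077114-41077363 (minus), chr7:139582798-139583047 (minus) and chr9:56864854-56865103 (plus), in the order Mag, Opalin, Nkx6-2, Cspg4. Capitals mark ACAAAG, a core shared by SOX family sites, CTGGCAC, a core of the MYRF motif, or their reverse complements.
Mag: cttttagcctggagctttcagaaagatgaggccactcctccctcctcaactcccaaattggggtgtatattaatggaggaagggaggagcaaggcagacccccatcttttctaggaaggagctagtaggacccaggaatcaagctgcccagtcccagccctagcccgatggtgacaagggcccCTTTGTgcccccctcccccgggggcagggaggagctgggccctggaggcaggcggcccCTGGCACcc
Opalin: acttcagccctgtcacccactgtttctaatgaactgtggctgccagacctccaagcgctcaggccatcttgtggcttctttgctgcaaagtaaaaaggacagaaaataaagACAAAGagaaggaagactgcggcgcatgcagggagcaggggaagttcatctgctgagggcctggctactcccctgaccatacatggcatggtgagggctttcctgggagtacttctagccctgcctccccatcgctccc
Nkx6-2: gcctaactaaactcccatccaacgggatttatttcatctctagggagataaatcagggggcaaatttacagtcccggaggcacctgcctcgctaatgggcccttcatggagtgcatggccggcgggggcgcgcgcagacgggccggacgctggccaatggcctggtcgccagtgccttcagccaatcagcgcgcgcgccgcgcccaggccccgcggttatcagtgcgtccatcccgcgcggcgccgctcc
Cspg4: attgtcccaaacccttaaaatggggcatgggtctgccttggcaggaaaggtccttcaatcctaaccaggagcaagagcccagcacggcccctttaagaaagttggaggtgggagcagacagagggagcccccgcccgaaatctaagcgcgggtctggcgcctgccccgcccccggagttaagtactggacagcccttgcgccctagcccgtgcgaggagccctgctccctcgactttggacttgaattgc

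Both cores and the E-box form CAGCTG were searched on both strands in 250 bases before each listed start, and the 3 motifs share no overlapping letters in the sequences shown. In Mag the SOX core, as its reverse complement, lay 67 bases and the MYRF core 9 bases before the start, and in Opalin the SOX core lay 139 bases before it. The windows of Nkx6-2 and Cspg4 held none of the 3 motifs. RefSeq windows were found for 24 of the 33 members, 30 windows in all, since a gene can have several starts. The SOX core was in 7 of 24 mature windows (29.2%) and in none of 4 precursor windows, against 16.5% of all 32851 windows. The 7 windows belong to 6 genes, Cnp, Mag, Mobp, Opalin, Plekhb1 and Tspan2, since 2 overlapping windows of Mag share the same letters. In Plekhb1 and Tspan2 the window with the core lies wholly within the gene, before another listed start. The window before the gene itself held none in either. The precursor windows of Pdgfra and Vcan also lie wholly within the gene. With 4 precursor windows, finding no core does not set them apart from all windows or from the mature ones. The MYRF core was in 4 of 24 mature windows (16.7%) and in no precursor window, against 4.19% of all windows, and those 4 are the same 2 windows of Mag and 1 each of Cnp and Hapln2. The E-box form was in 4 of 24 mature windows and in the Lhfpl3 window among the precursors, against 13% of all windows. These are matches of letters and say nothing of binding.

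The mature members varied together between arrays of the same group. KT array 2 was the highest of the 9 arrays for 20 of 23 mature members, the exceptions being Gsn, Hapln2 and Car2, while it was highest for 5.99% of all genes. SD array 1 was the lowest for 11 and KT array 3 for 8 of the 23, against 16.3% and 24.7% of all genes. The median over the mature members, relative to the saline mean, was 0.014, 0.38 and -0.27 in KT arrays, -0.26, -0.051 and -0.031 in SD arrays, and -0.031, 0.16 and -0.11 in saline arrays. KT arrays therefore spanned 0.65 on the log2 scale, SD arrays 0.23 and saline arrays 0.26. Over the precursor members the same medians were 0.049, 0.0096 and -0.19 in KT arrays, 0.020, 0.12 and -0.14 in SD arrays, and -0.076, -0.032 and 0.057 in saline arrays. The precursor median was near the saline mean in KT array 2 and SD array 1, and in KT array 3 it was low, as the mature median was. The lineage factors followed KT array 2, at 0.34, but in SD array 1 their median was 0.22.

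**Figure D3:**
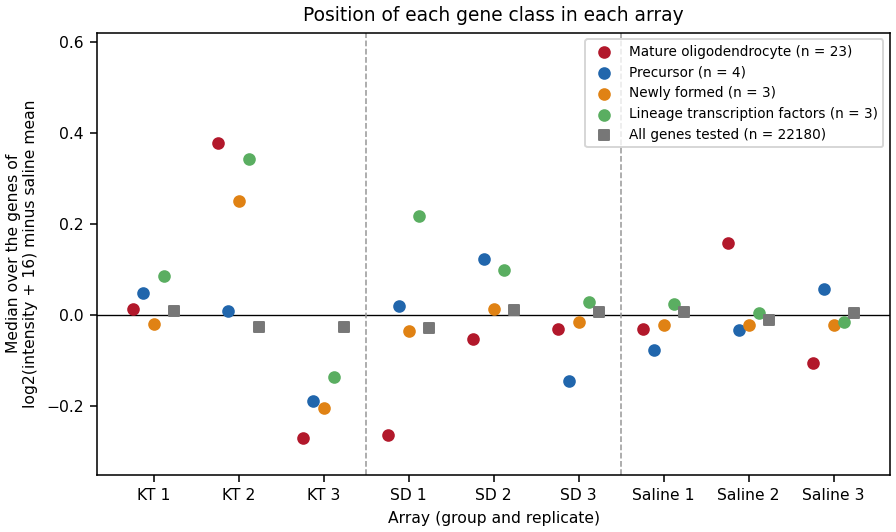
For each array, KT at the left, SD in the middle and saline at the right, points give the median over the genes of a class of log2(intensity + 16) minus the saline mean. The mature median is 0.38 in KT array 2 and -0.27 in KT array 3, and the medians of all genes stay near 0.

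The contrast between KT array 2 and KT array 3 was seen in every mature member. These 2 arrays were picked because the mature median was highest and lowest in them, so a high fold partly restates that choice. Other lists were read in the same 2 arrays, which were not picked for them. The fold between these arrays had a median of 1.69, with a range of 1.12 for Adamts4 to 2.35 for Mag, and exceeded 1.5 in 16 of the 23. Ermn followed Mag at 2.14. In the precursor members the fold had a median of 1.14, with a range of 0.99 for Cspg4 to 1.17 for Vcan, and over all genes the median was 1.01. Marker lists of other cells had median folds of 1.04 for astrocytes, 1.05 for neurons, 1.11 for microglia, 1.05 for endothelial cells and 1.16 for deep cortical layers. The 42 measured genes of a further list of mature oligodendrocytes had a median fold of 1.17, with 37 higher in KT array 2.

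Spread within groups also differed between the mature and precursor members. The SD within groups, on the log2 scale, had a median of 0.24 over the mature members, 0.13 over the precursor members and 0.12 over the 12082 genes in the brightness range of the mature members. It was highest for Mag, at 0.38, then 0.34 for Ermn. Of the 23 mature members, 22 lay above the median and 15 above the 95th percentile of genes of like brightness. Of the 4 precursor members, 2 lay above the median and none above that percentile. The 3 newly formed members had a median SD within groups of 0.18. The further list of 42 mature oligodendrocyte genes had 0.13, as did all genes tested, without matching for brightness. Its median spread was thus not wide, though its highest SD was 0.44. KT array 2 was still the highest of the 9 arrays for 21 of these 42 genes (50%), against 5.99% of all genes. Within KT arrays alone the mature median was 0.35, against 0.18 in SD arrays and 0.16 in saline arrays, while all genes had 0.11, 0.15 and 0.086 in the same groups. In KT arrays the newly formed members had 0.26 and the further 42 genes 0.12. The standard errors rest on 1 spread per gene over all 9 arrays, which limma's eBayes step draws towards that of all genes. For mature members of high spread they therefore carry that spread only in part. The SE of Mag was 0.22 in every comparison.

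**Figure D4:**
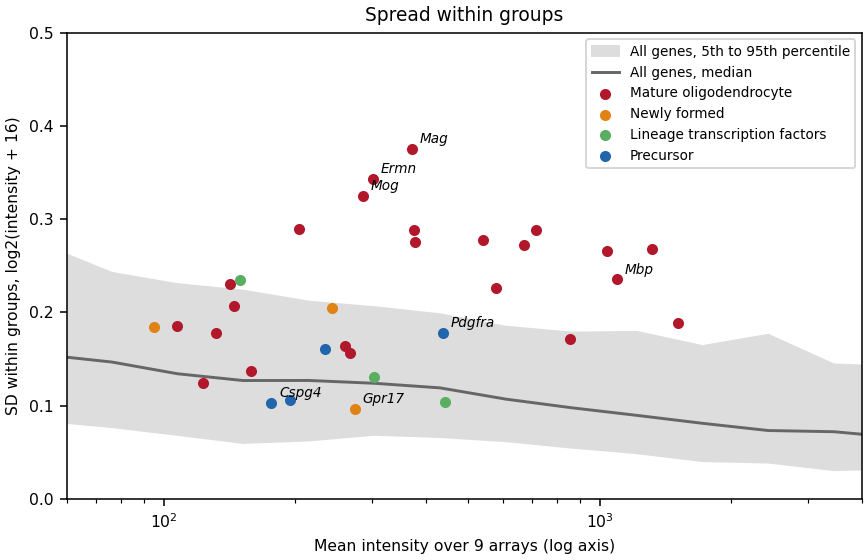
The SD within groups of log2(intensity + 16) is plotted against the mean intensity over 9 arrays on a log axis, with the 5th to 95th percentile of all genes as a grey band. Mature members, Mag and Ermn highest, lie mostly above the band, and the precursor members Pdgfra and Cspg4 lie within it.

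In KT against saline, 14 of the 23 mature members averaged higher and 9 lower in KT arrays, with a median difference of 0.052, against -0.015 over all genes, of which 54.6% were lower. No member passed limma at an adjusted p of 0.05, where 0% of all genes did, and the smallest adjusted p of a member was 0.870. No member had an unadjusted p under 0.05 by limma, against 2.21% of all genes higher and 2.35% lower. No member's KT and saline arrays were without overlap, against 6.48% of all genes higher and 7.89% lower. The direction rested on single arrays: without KT array 2, 2 mature members were higher and 21 lower, with a median of -0.10, and without KT array 3, 22 were higher, with a median of 0.20. Without saline array 2, 20 were higher, with a median of 0.092, and without saline array 3, 11 were higher, with a median of -0.0092. When limma weighted the arrays by their fit, KT array 2 received a weight of 7.92 against 0.348 to 2.08 for the others. All 23 mature members were then higher, and KT array 2, which led that fit, by itself lay above the saline mean for all 23. The direction is thus mostly that of 1 array. In that fit 9 members passed the adjusted threshold as higher in KT and 0 as lower, where 6.49% of all genes passed in either direction. These were Olig1, Sox10, Nkx6-2, Mog, Mobp, Mal, Cldn11, Ppp1r14a and Gjc3, with Mog at 0.56 (adjusted p = 0.0336).

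In SD against saline, 21 of 23 mature members averaged lower, against 53.4% of all genes. Of these, 6 had SD arrays entirely below the saline arrays, namely Nkx6-2, Mag, Opalin, Tspan2, Car2 and Gpr37, where 3.54% of all genes did. None of the 33 members passed limma after adjustment, where 0% of all genes did, and none had an unadjusted p under 0.05, against 1.8% of all genes higher and 1.72% lower. All adjusted p-values of members were 1.00. The comparison shares its saline arrays with KT against saline. Without SD array 1, 15 of 23 were lower with a median of -0.078, and without saline array 2, 16 were lower with a median of -0.084. The fit takes 1 spread per gene from all 9 arrays, so the KT arrays enter these p-values too. Without KT array 2, 1 mature member was lower at an unadjusted p under 0.05 by limma, against 340 of all 22180 genes. Without KT array 3, 2 were, against 415 genes, and the median stayed at -0.16 in both fits. Without saline array 2, 1 was higher at that threshold, against 290 genes.

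In KT against SD, 21 of 23 mature members averaged higher in KT arrays, with a median of 0.18, Ermn and Hapln2 being the exceptions, while over all genes the median was -0.012. This comparison uses the same SD arrays as SD against saline and is not separate evidence of their level. Nkx6-2 and Tspan2 had an unadjusted p under 0.05 by limma, where 5.1% of all genes were higher and 4.38% lower at that threshold. Both were higher, and 2 of 33 members is near the share called higher. No member passed after adjustment, where 0% of all genes did. Nkx6-2 alone had KT arrays entirely above the SD arrays, where 4.53% of all genes did, so 1 of 33 is near that share. No member lay entirely below, where 5.54% did. Without KT array 2 the median was 0.0032 with 12 higher, and without SD array 1 it was 0.084 with 15 higher. Without KT array 3 all 23 were higher, with a median of 0.31, and 11 had an unadjusted p under 0.05 by limma as higher, where 553 of all 22180 genes were higher and 557 lower at that threshold.

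**Figure D5:**
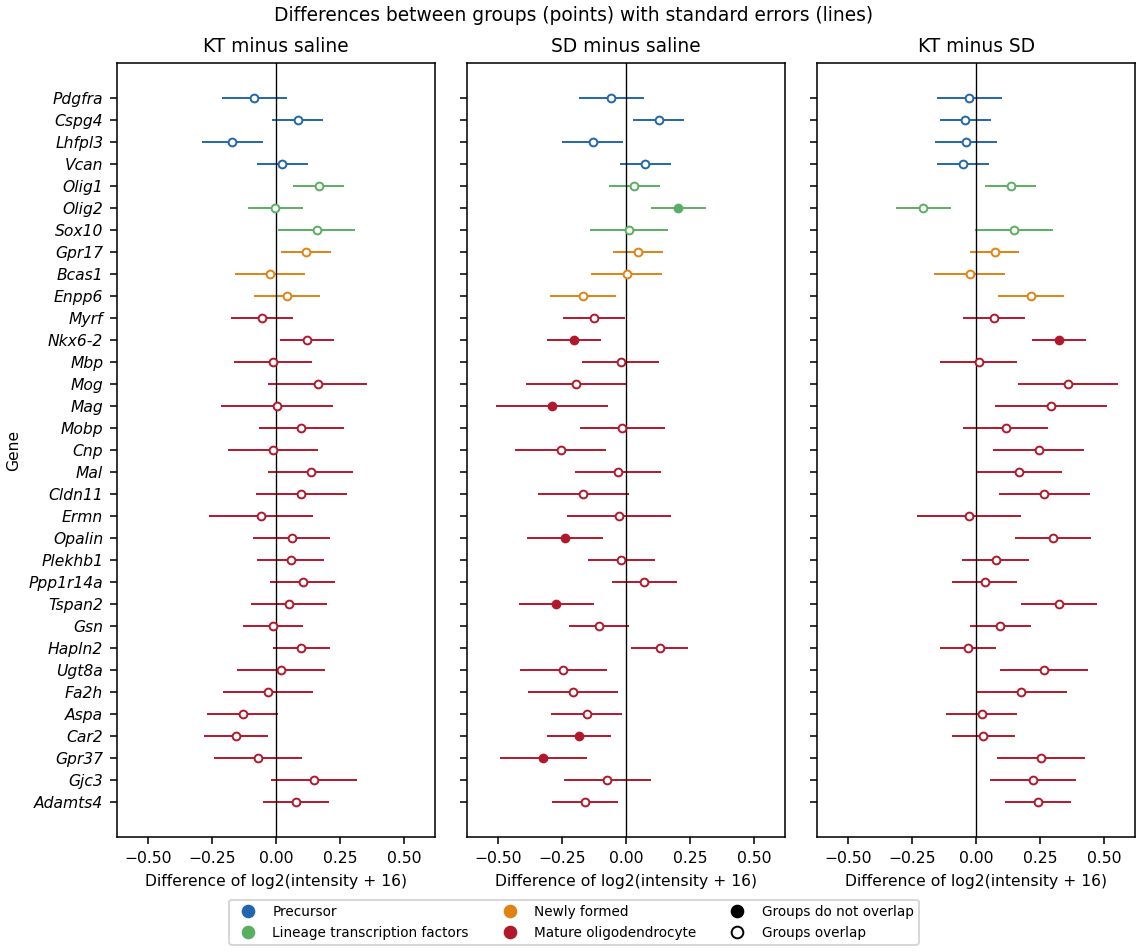
For each measured member, points give the difference of log2(intensity + 16) in KT minus saline, SD minus saline and KT minus SD, with the standard error as a line and filled points where the arrays of the groups do not overlap. In SD minus saline 21 of 23 mature members lie left of 0, and 6 of them and Olig2 are filled.

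Further genes of the lineage, not among the members, were read from lists of mature and precursor genes. Of 45 listed mature genes, 42 were measured by a probe set of their own. Of the 42, 26 were lower in SD than in saline arrays, with a median of -0.040, against 53.4% of all genes lower. In KT against SD 30 of the 42 were higher, with a median of 0.072. Of all 22180 genes, 10431 were higher there, with a median of -0.012. None passed limma after adjustment in any comparison, and 3 had an unadjusted p under 0.05 in KT against SD, all higher, which is near the 5.1% of all genes called higher there. Pllp, the plasmolipin of myelin membranes, read 362, 412 and 343 in KT arrays, 254, 318 and 317 in SD arrays, and 343, 357 and 328 in saline arrays. All SD arrays of Pllp lay below all KT arrays, as in 4.53% of all genes, and below all saline arrays, as in 3.54%. The difference in KT against SD was 0.32 ± 0.11 (limma, adjusted p = 0.444). Tmem125, a transmembrane protein, read 132, 145 and 138 in KT arrays, 106, 98.0 and 134 in SD arrays, and 115, 124 and 123 in saline arrays. Its KT and SD arrays overlapped only through SD array 3, with a difference of 0.27 ± 0.11 (limma, adjusted p = 0.482). Serpinb1a, a protease inhibitor, read 144, 135 and 133 in KT arrays, 46.9, 114 and 132 in SD arrays, and 143, 125 and 111 in saline arrays. Its difference of 0.52 ± 0.23 (limma, adjusted p = 0.518) came with 1 SD array far below the rest.

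Of 22 listed further precursor genes, 20 were measured, and 13 were higher in SD than in saline arrays, with a median of 0.021. Of all 22180 genes, 10333 were higher there. Sulf2, an enzyme that trims sulfate from heparan sulfate, was the only one of the 20 with an unadjusted p under 0.05 by limma. It was called higher in SD against saline, where 1.8% of all genes were. It was also called lower in KT against SD, where 4.38% were, so 1 gene of 20 is near that share. It read 1172, 1188 and 1098 in KT arrays, 1356, 1357 and 1255 in SD arrays, and 1101, 1006 and 1129 in saline arrays. All SD arrays stood above all saline arrays, as in 3.57% of all genes, and above all KT arrays, as in 5.54%. The difference was 0.29 ± 0.090 in SD against saline (limma, adjusted p = 1.00) and -0.20 ± 0.090 in KT against SD (limma, adjusted p = 0.527).

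Markers of other cells were read in the same arrays. The 9 choroid plexus markers, none at 0, were all lower in SD than in saline arrays. Their median was -0.18 there, against -0.16 for the mature members. In KT against SD all 9 were higher, with a median of 0.14, against 0.18 for the mature members. Their summed intensity was 977 to 1302 in KT arrays, 763 to 1301 in SD arrays and 907 to 9833 in saline arrays. The upper end is saline array 2, where Ttr read 8428 and which was also the highest saline array for the mature median. Car2 is also expressed in choroid plexus. All 5 ependymal markers were lower in SD than in saline arrays, with a median of -0.043. In KT against SD 4 of the 5 were higher, with a median of 0.13. Their sums were 491 to 555 in KT arrays, 435 to 546 in SD arrays and 496 to 511 in saline arrays. Of 8 meningeal fibroblast markers, 7 were lower in KT and 7 in SD than in saline arrays, with medians of -0.17 for KT and -0.086 for SD, and sums of 1285 to 1370 in KT arrays, 1345 to 1430 in SD arrays and 1357 to 1545 in saline arrays. All 8 astrocyte markers were lower in KT than in saline arrays, with a median of -0.100, and 5 of the 8 were lower in SD than in saline arrays. Their sums were 9018 to 10136 in KT arrays, 9080 to 10550 in SD arrays and 9412 to 10303 in saline arrays. None of these 3 lists had a marker at 0. The 7 deep cortical layer markers, none at 0, summed to 1552 to 1925 in KT arrays, 1770 to 1914 in SD arrays and 1547 to 1654 in saline arrays, and 6 of the 7 were higher in KT and 6 in SD than in saline arrays. The 8 endothelial markers, none at 0, were all higher in SD than in saline arrays. Their sums were 1875 to 2266 in KT arrays, 2308 to 2494 in SD arrays and 2067 to 2274 in saline arrays. In KT against SD all 8 were lower, with a median of -0.27. Of these, 6 had an unadjusted p under 0.05 by limma, where 4.38% of all genes were lower. The medians in KT against SD were -0.023 for 7 microglia, -0.095 for 8 mural and -0.12 for 6 striatal neuron markers. The 8 neuron markers summed to 24232 to 26535 in KT arrays, 24386 to 25324 in SD arrays and 24267 to 25578 in saline arrays. Summed intensity of the 23 mature members was 9562 to 15343 in KT arrays, 9351 to 11656 in SD arrays and 10696 to 12822 in saline arrays. The part of these other cells in the mature values was not tested.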

How the data were processed

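Total RNA of anterior cingulate cortex was hybridised to 9 Affymetrix arrays, 3 per group. The submitters' processing notes name PLIER 2.0, which makes 1 value of a probe set's probes, and Affymetrix Expression Console 1.1.1. The authors' deposited table holds linear intensity values of 41345 probe sets. How background was corrected and arrays were normalized is not given in the sources used here. Intensities were used as deposited, as log2(intensity + 16), which damps changes of dim genes. Array medians were 97.7 to 106.2, replicates of a group correlated at 0.986 to 0.995, and no arrays were identical. The number of arrays limits the precision. The labels number the arrays group by group and give no batch or order of hybridisation. Whether either went with group is therefore not known.

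Of the probe sets, 23521 had 1 gene symbol, 1814 several and 16010 none in the platform annotation, and 23328 matched RefSeq (GRCm38.p6). Where 1082 genes had several, the brightest was kept. No source used here names the authors' genome build, so gene coordinates are not printed except for RefSeq promoters. Groups were compared with limma 3.58.1 in R 4.3.3 (lmFit, eBayes, 6 residual degrees of freedom) over 22180 genes, with Benjamini-Hochberg adjustment at 0.05. The fit was also run on simulated data with independent noise for each gene. That run says nothing of genes that vary together between arrays, as the mature members did. Lists are described by counts and medians, without a set test. The members and lists were chosen with earlier results of these data known. Values in every array are given for members with an unadjusted p under 0.05 or without overlap between groups, and for chosen core genes of each stage. Of the further lineage genes, those with an unadjusted p under 0.05 are named. Alternatives were quantile normalization, offsets of 1 and 64, leaving out dim genes, averaging probe sets, array weights, a replicate block, each pair of groups alone, and leaving out each array.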

Additional observations from a re-analysis of the deposited data

How the results depend on the processing

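With 3 arrays a group, 1 array decides much of the mature result. Leaving out each array in turn, the median change of the mature members ran between -0.10 and 0.20 in KT against saline, between -0.20 and -0.078 in SD against saline and between 0.0032 and 0.31 in KT against SD. The precursor median ran between -0.089 and 0.035, between -0.062 and 0.086, and between -0.12 and 0.031 in the same comparisons. The mature members higher in KT than in saline arrays numbered 2 to 22, those lower in SD than in saline arrays 15 to 21, and those higher in KT than in SD arrays 12 to 23. Genes past the adjusted threshold numbered 0 in KT against saline in every such fit, 0 to 4 in SD against saline (1 without SD array 1, 4 without SD array 2) and 0 to 214 in KT against SD (1 without SD array 2, 214 without SD array 3). With array weights, which favoured KT array 2, 1439 genes passed in KT against saline and 42 in KT against SD. The mature medians were then 0.35 and 0.51, and 23 of 23 mature members were higher in KT than in saline arrays. An offset of 64 gave 14 genes in KT against SD, and leaving out dim genes, which kept 14787, gave 5. The cause was not tested. Quantile normalization, an offset of 1, averaging probe sets and each pair of groups alone kept these counts at 0. Pairing by replicate number was looked for in the values left after each gene's group means were subtracted. In these, same-numbered arrays of different groups correlated at -0.20 to 0.44, with 2 of 9 pairs over 0.1. Pairs with different numbers ran from -0.51 to 0.54, so no pairing by number was seen. With replicate number as a block 0 genes passed in every comparison. Of 891 values of single members with 1 array left out, 96 differed in direction from the value over all arrays, and so did 35 of 792 under the other alternatives. No detection call was used, so it is not known whether the dimmest members, near the array medians, were above background.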
